A study of Mus musculus with 23 samples.

Results

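The genes described here are 10 regulators of cell cycle arrest: the CIP/KIP inhibitors *Cdkn1a* (p21) and *Cdkn1b* (p27), the INK4 inhibitors *Cdkn2a*, *Cdkn2b*, *Cdkn2c* and *Cdkn2d*, the tumor suppressor *Trp53* (p53) with its antagonist *Mdm2*, and the D-type cyclins *Ccnd1* and *Ccnd2*. They were taken by gene symbol from both deposited tables of normalized counts, and all 10 were found among the 35455 genes of one table and the 35454 genes of the other. Both tables hold flow sorted tdTomato+ lung tumor cells of adult mice on a mixed genetic background, which carry *Braf* CAT, an allele that expresses BRAFV600E together with tdTomato after CRE recombination. Tumors were initiated with Ad5-Sftpc-CRE, an adenovirus that limits CRE to cells expressing *Sftpc*, mainly alveolar type 2 (AT2) cells. The first table has 6 libraries of BRAFV600E tumors, with 1, 3 and 2 of them from 2, 6 and 12 weeks after initiation, and 8 of BRAFV600E/PI3KαH1047R tumors, which also express the activated PI3-kinase of the *Pik3ca* lat-H1047R allele (2, 4 and 2 libraries at the same times). The second has 5 BRAFV600E/PGC1αHet and 4 BRAFV600E/PGC1αNull libraries at 12 weeks, with 1 or both copies of floxed *Ppargc1a* open to the same CRE. Every group, the controls included, therefore carries BRAFV600E, and no normal lung cells were compared. Mice taken at 12 weeks had received a lower dose of virus than those taken at 2 or 6 weeks, so that 12 weeks and the lower dose cannot be told apart.

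Proliferation is held at the G1 to S transition by the retinoblastoma protein, which D-type cyclins inactivate together with their partner kinases CDK4 and CDK6. The INK4 proteins bind those kinases and displace the cyclin, whereas p21 and p27 bind whole cyclin-CDK complexes. Oncogenic BRAF is known both to induce cyclin D1 through ERK and to provoke an arrest with features of senescence, in which p53, p21 and the products of *Cdkn2a* are the usual markers. p53 turns on *Cdkn1a* and *Mdm2*, and MDM2 in turn marks p53 for destruction, so that the messages of both genes are commonly read as an output of p53. PI3-kinase signaling acts on the same machinery through AKT, which is known to phosphorylate p21, p27 and MDM2, so that much of this control leaves no trace in mRNA.

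The positions of the genes frame what their rows can show. *Cdkn2a* and *Cdkn2b* lie side by side at chr4:89274471-89294653 and chr4:89306299-89311039 (GRCm38, minus strand), and the *Cdkn2a* row sums 2 unrelated proteins, p16Ink4a and p19Arf, that start from separate promoters. *Cdkn1a* spans chr17:29090976-29100727 on the plus strand and *Ccnd1* chr7:144929931-144939925 on the minus strand. RefSeq promoter windows on GRCm38.p6 were found for 8 of the 10 genes. The 250 bases before the start were read for *Cdkn1a* and *Mdm2*, the classical p53 targets among the genes, and for both starts of *Cdkn2a*, in lower case with matches to the searched motifs in capitals. Both strands were searched for the p53 half-site, named only because its consensus is degenerate, and for the CCAAT box. The other motifs were TATAAA (the TATA box), GGGCGG (the GC box), TGACTCA (the AP-1 site) and GTAAACA (the FOXO site). CACGTG stood for the E box and TTTNNCGN for the E2F site.
Cdkn1a, chr17:29090729-29090978, plus strand: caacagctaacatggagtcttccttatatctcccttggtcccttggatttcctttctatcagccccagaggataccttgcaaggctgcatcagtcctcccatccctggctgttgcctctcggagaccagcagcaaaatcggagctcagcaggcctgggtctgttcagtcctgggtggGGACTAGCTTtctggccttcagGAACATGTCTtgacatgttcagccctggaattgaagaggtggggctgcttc
Mdm2, chr10:117710759-117711008, minus strand: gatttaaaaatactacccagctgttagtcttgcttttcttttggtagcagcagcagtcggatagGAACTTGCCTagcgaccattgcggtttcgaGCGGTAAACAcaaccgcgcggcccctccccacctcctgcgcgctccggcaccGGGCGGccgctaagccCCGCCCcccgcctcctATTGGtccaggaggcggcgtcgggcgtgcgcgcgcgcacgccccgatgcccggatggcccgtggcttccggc
Cdkn2a, distal start, chr4:89294620-89294869, minus strand: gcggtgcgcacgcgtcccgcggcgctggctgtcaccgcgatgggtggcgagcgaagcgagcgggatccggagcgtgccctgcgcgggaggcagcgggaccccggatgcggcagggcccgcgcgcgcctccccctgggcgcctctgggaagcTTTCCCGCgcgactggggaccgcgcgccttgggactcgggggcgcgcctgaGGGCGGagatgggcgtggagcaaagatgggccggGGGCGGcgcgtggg
Cdkn2a, proximal start, chr4:89282193-89282442, minus strand: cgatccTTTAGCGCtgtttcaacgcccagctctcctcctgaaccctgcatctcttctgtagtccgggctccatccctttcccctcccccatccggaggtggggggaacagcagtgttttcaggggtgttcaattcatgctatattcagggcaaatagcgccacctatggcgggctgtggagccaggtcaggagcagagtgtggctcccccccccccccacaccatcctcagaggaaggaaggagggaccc
The *Cdkn1a* window, at the first of its 2 starts, held 2 p53 half-sites, which began 73 and 51 bases before the start, and no other match. The window at the second start, chr17:29093519-29093768, held no p53 half-site and 2 GC boxes. The *Mdm2* window held 1, which began 186 bases before the start, beside a FOXO and an E2F match that overlap each other, 2 GC boxes and a CCAAT box. A FOXO match was present in 3.17%, an E2F match in 14.1%, a CCAAT box in 33.8% and a GC box in 32.7% of the 32851 promoter windows of the same length, a TATA box in 12.4%, an AP-1 site in 4.46% and an E box in 6.02%. A p53 half-site was present in 7.13% of them. Neither *Cdkn2a* window held one. The distal *Cdkn2a* window had a G+C content of 78.4% and 40 CG dinucleotides, against 60% and 7 in the proximal one, with 2 GC boxes in the distal window only and 1 E2F match in each. *Trp53* and *Cdkn2d* also had 1 p53 half-site each, and the windows of *Cdkn1b*, *Cdkn2b* and *Cdkn2c* had none. These matches describe sequence only.

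Normalized counts, the authors' estimates of reads per gene scaled between libraries, are the unit of all values given here, and depth in reads is unknown because the reads were not used. The normalized counts of a library summed to between 16433820 and 20287296 in the first table and to between 7115753 and 9159567 in the second. The tables were normalized separately, so no level is compared between them. AT2 markers were abundant throughout, at a summed level of 79591 to 1589409 over 10 genes in the first table. Endothelial markers were present as well, at 6173 to 82773 over 10 genes, although the cells had been sorted on tdTomato. In 4 of 4 Y-linked genes (*Kdm5d*, *Ddx3y*, *Uty* and *Eif2s3y*) 1 library labelled female, a BRAFV600E/PI3KαH1047R tumor at 12 weeks, was above the median of the libraries labelled male, and the other library of its pair, labelled male, was the lowest of the males, so the labels of these 2 may be exchanged. The 2 to 6 week result is also given without this pair. That fit has no term for sex and does not compare 12 week libraries, so it cannot check the labels. Nothing at 12 weeks can be given without the pair, and the fits with sex as a factor used the labels as given. *Ppargc1a*, the gene deleted in the second table, ranged from 75.8 to 561 in the BRAFV600E/PGC1αHet libraries and from 38.0 to 124 in the BRAFV600E/PGC1αNull libraries, and the ranges overlapped. Its fitted log2 difference was -1.51 ± 0.50 (SE, unadjusted p = 0.0105, adjusted p = 0.978, limma), for a row that sums the whole gene and not the floxed part alone.

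Compared per kilobase of the longest annotated transcript, cyclin D1 and p21 were the most abundant of the 10 messages in the mean over libraries. They were the first 2 in 11 of 14 libraries of the first table, and in neither BRAFV600E/PI3KαH1047R library at 2 weeks, where *Mdm2* (865 and 716 normalized counts per kilobase) was above both *Ccnd1* (614 and 523) and *Cdkn1a* (155 and 302). In the first table the mean level was 1846 normalized counts per kilobase for *Ccnd1*, 1629 for *Cdkn1a*, 904 for *Mdm2*, 566 for *Trp53*, 399.6 for *Ccnd2* and 262 for *Cdkn1b*. The INK4 genes were lower, with 116 for *Cdkn2b*, 54.2 for *Cdkn2d*, 44.6 for *Cdkn2c* and 4.98 for *Cdkn2a*. *Ccnd1* was above *Cdkn1a* in 13 of 14 libraries and *Cdkn1a* was above *Mdm2* in 12, but *Cdkn2d* exceeded *Cdkn2c* in only 7 of 14 and *Trp53* exceeded *Ccnd2* in 10, so these neighbours did not differ beyond their spread. In the second table *Cdkn1a* (2034) and *Ccnd1* (1888) again led, with *Cdkn1a* ahead in 6 of 9 libraries, followed by *Mdm2* (504) and *Trp53* (345), each above the next gene in 9 of 9. *Cdkn2a* (9.08) and *Cdkn2c* (6.81) were at the bottom and changed places in 3 of 9 libraries. Salmon may have had to share some reads between genes, but the transcripts it was run on are not given. In GENCODE vM21, 10.2% of the 31-base words in *Trp53* transcripts also occur elsewhere, most often in the pseudogene *Trp53-ps*. So do 22.3% of those of *Ccnd1*, most often in LTO1, a neighbour on the other strand that overlaps it. The library kit is not stated to keep strand, so the values of these rows, and of *Cdkn1a* with 9.78% shared words, carry that uncertainty.

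The largest change among the 10 genes was in *Cdkn1a*, which rose between 2 and 6 weeks in BRAFV600E/PI3KαH1047R tumors. The 2 libraries at 2 weeks held 322 and 628 normalized counts of *Cdkn1a*. The 4 libraries at 6 weeks held 1704, 4364, 4095 and 6334, and the 2 at 12 weeks held 3599 and 5601. Both libraries at 2 weeks were below every other library of the table, and the groups at 2 and 6 weeks did not overlap, whereas those at 6 and 12 weeks did. The fitted rise from 2 to 6 weeks was 3.05 ± 0.49 on the log2 scale (SE, n = 4 against 2, adjusted p = 0.0379, limma), or 8.27-fold with a 95% interval of 3.93 to 17.4. *Cdkn1a* was the only one of the 9 genes tested that passed the threshold, where 0.159% of the 17558 genes tested passed, and 2 of 9 (*Cdkn1a* and *Ccnd1*) had an unadjusted p under 0.05, where 13.4% did. With so few libraries an exact permutation test cannot go below 0.0667, which is the value it gave.

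**Figure D1:**
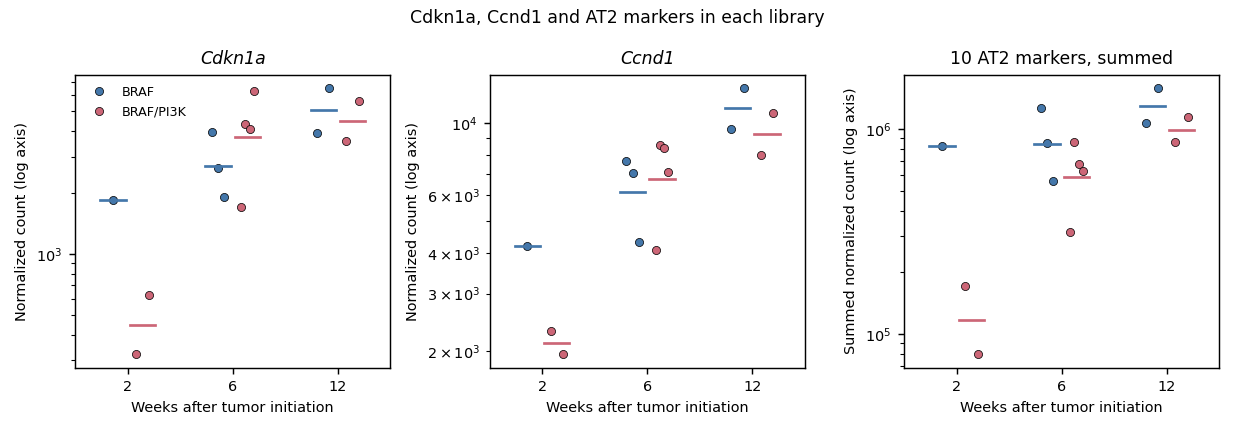
Normalized counts (log axis) of *Cdkn1a* and *Ccnd1*, and the summed normalized counts (log axis) of 10 AT2 markers, against weeks after initiation. Points are libraries, bars are geometric means, and the 2 BRAFV600E/PI3KαH1047R libraries at 2 weeks are the lowest in all 3 panels.

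In BRAFV600E tumors the fitted differences of the same gene were smaller. *Cdkn1a* was 1835 normalized counts in the single library at 2 weeks, 3954, 2644 and 1911 in the 3 at 6 weeks, and 3918 and 6532 in the 2 at 12 weeks. The value at 2 weeks was just under the lowest at 6 weeks, and the libraries at 6 and 12 weeks overlapped. The fitted differences were 0.56 ± 0.66 from 2 to 6 weeks (adjusted p = 0.954, limma) and 0.90 ± 0.52 from 6 to 12 weeks (adjusted p = 1). No gene of the 10 passed in either interval, where 0% of all genes passed. At an unadjusted p under 0.05, 0 of 9 did so from 2 to 6 weeks against 7.28% of all genes, and 1 of 9, *Ccnd1*, from 6 to 12 weeks against 3.85%. The difference between the genotypes in the change from 2 to 6 weeks, a comparison added after the values had been seen, was 2.48 ± 0.82 for *Cdkn1a* (unadjusted p = 0.0105, adjusted p = 0.438). It rests on 1 BRAFV600E library at 2 weeks, and was 1.15 with the endothelial score as a covariate. No gene of the 10 passed, where 0% of all genes did, and 2 of 9 (*Cdkn1a* and *Cdkn2b*) had an unadjusted p under 0.05, where 8.95% did.

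AT2 markers moved with *Cdkn1a*. Their summed level was 171533 and 79591 normalized counts in the BRAFV600E/PI3KαH1047R libraries at 2 weeks, against 312903, 865802, 677503 and 621705 at 6 weeks. All 10 markers were higher at 6 weeks at an unadjusted p under 0.05, and 0 passed the adjusted threshold, with a median log2 difference of 2.46 against 0.01 over all genes tested. Endothelial markers went the other way in 10 of 10 genes, from 58322 and 59623 at 2 weeks to 16675 to 82773 at 6 weeks, with 1 of 10 at an unadjusted p under 0.05, and the groups overlapped. Alveolar type 1 markers did not overlap, at 101757 and 110700 at 2 weeks against 34054 to 86750 at 6 weeks, with 7 of 8 negative, 4 lower and 1 higher at that p and a median of -0.98. Fibroblast markers did not overlap either, at 21000 and 30347 against 6567 to 19849, with 5 of 6 negative, 2 lower at that p and a median of -1.28. Of 9 lymphocyte markers 8 were higher at 6 weeks, 5 of them at that p, with a median of 2.74. Ciliated markers did not overlap in their sums, at 21800 and 29824 against 8882 to 21117, with 2 of 4 tested negative, both at that p, and a median of -0.32. Club markers did not overlap in their mean log2 levels, at 5.45 and 7.60 against 8.10 to 9.93, with 4 of 4 positive, 2 at that p, and a median of 2.16. The part of the alveolar type 1, fibroblast, lymphocyte, ciliated and club markers in the result was not tested. In sorted cells measured in bulk, fewer cells of a type and less RNA in each cell cannot be told apart. With the AT2 score of each library as a covariate the rise of *Cdkn1a* was 1.66 ± 0.75 (unadjusted p = 0.0468, adjusted p = 0.509), with the endothelial score it was 2.47 ± 0.38 (adjusted p = 0.0270) and with the macrophage score 2.97 (adjusted p = 0.0452). The call was also lost when the 12 week BRAFV600E/PI3KαH1047R libraries were left out (adjusted p = 0.0607), when sex was a factor (0.127; both libraries at 2 weeks were male), with all genes of any count (0.0758), quantile normalization (0.0508) or the replicate block (0.203), and on leaving out 8 of the 14 libraries in turn. It was kept in 9 of 23 alternatives. *Cdkn1a* was higher at 6 weeks in every one of these fits, by 1.66 to 3.53.

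*Cdkn1b*, which encodes p27, an inhibitor that accumulates in resting cells, did not follow *Cdkn1a*. It was 1779 and 1798 at 2 weeks in BRAFV600E/PI3KαH1047R tumors, 1720.0, 1044, 1078 and 1238 at 6 weeks, and 397 and 1105 at 12 weeks. Both values at 2 weeks were above all at 6 weeks, the first of which came close, and 1 library at 12 weeks stood far below the rest. The fitted differences were -0.52 ± 0.37 from 2 to 6 weeks (adjusted p = 0.566, limma) and -0.91 ± 0.37 from 6 to 12 weeks (unadjusted p = 0.0299, adjusted p = 1.00). The latter was -0.17 without the library at 397 and -1.65 without the other at 12 weeks. The library at 397 also had the most macrophage markers of the 14, at a summed level of 25601 against 1382 to 10427 in the other 13, and their part was not tested. *Cdkn1b* was the 1 gene of 9 under an unadjusted p of 0.05 from 6 to 12 weeks, where 4.81% of all genes were, and 0 passed the adjusted threshold, where 0.0114% did. None of the 10 was without overlap between 6 and 12 weeks, where 12.4% of genes were. In BRAFV600E tumors *Cdkn1b* was between 871 and 1325 in all 6 libraries.

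*Ccnd1*, whose protein carries mitogen signals to CDK4 and CDK6, had a pattern like that of *Cdkn1a* over the 14 libraries. BRAFV600E/PI3KαH1047R libraries held 2297 and 1957 normalized counts of *Ccnd1* at 2 weeks, 4083, 8587, 8364 and 7069.7 at 6 weeks, and 7978 and 10716 at 12 weeks. BRAFV600E libraries held 4192 at 2 weeks, 7673, 7046 and 4308 at 6 weeks, and 9585 and 12823 at 12 weeks. In each genotype the libraries at 2 weeks were lowest, and in BRAFV600E tumors those at 12 weeks were above all at 6 weeks. The fitted rise from 2 to 6 weeks in BRAFV600E/PI3KαH1047R tumors was 1.67 ± 0.33 (3.18-fold, adjusted p = 0.0730, limma), short of the threshold. It passed (adjusted p = 0.00427) on leaving out the first 6 week BRAFV600E/PI3KαH1047R library, which had the least *Cdkn1a* and *Ccnd1* and the most endothelial RNA (82773) of its group. With the AT2 score as a covariate the difference was 0.28 ± 0.34.

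By Pearson's r, *Cdkn1a* and *Ccnd1* were the closest pair of the 10 genes in each table. Their Pearson's r over the 14 libraries was 0.938 (permutation p = 1e-05, the smallest it can give, adjusted p = 0.0009 over 90 pairs in both tables) and Spearman's rho was 0.868 (permutation p = 0.0001, adjusted p = 0.009). The value of r was 0.890 without the 2 libraries farthest from the median of *Cdkn1a*, 0.970 within the 6 BRAFV600E libraries, 0.944 within the 8 BRAFV600E/PI3KαH1047R libraries and 0.830 within the 7 libraries at 6 weeks. In the 9 libraries of the second table r was 0.862 (exact permutation p = 0.00289, adjusted p = 0.0651) and rho 0.817 (exact permutation p = 0.0108, adjusted p = 0.0646), but r was 0.535 without the 2 farthest libraries, so that there the relation rested on those. By rho 4 other pairs of the second table were closer, led by *Cdkn1a* and *Trp53* at 0.900 (adjusted permutation p = 0.0608).

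*Ccnd2*, the other D-type cyclin, had its highest value in a library at 2 weeks, where *Ccnd1* was low. BRAFV600E/PI3KαH1047R libraries held 5290 and 3446 normalized counts of *Ccnd2* at 2 weeks, 5284, 1649.8, 1474 and 1037 at 6 weeks, and 1451 and 4132 at 12 weeks. BRAFV600E libraries held 3725 at 2 weeks, 1011, 2078 and 1657 at 6 weeks, and 1985 and 1189 at 12 weeks. The first library at 6 weeks stood far above the other 3 of its group and overlapped the values at 2 weeks. The fitted differences from 2 to 6 weeks were -1.16 ± 0.60 (adjusted p = 0.432, limma) in BRAFV600E/PI3KαH1047R tumors and -1.30 ± 0.80 (adjusted p = 0.818) in BRAFV600E tumors. With the AT2 score as a covariate the former was 0.25.

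**Figure D2:**
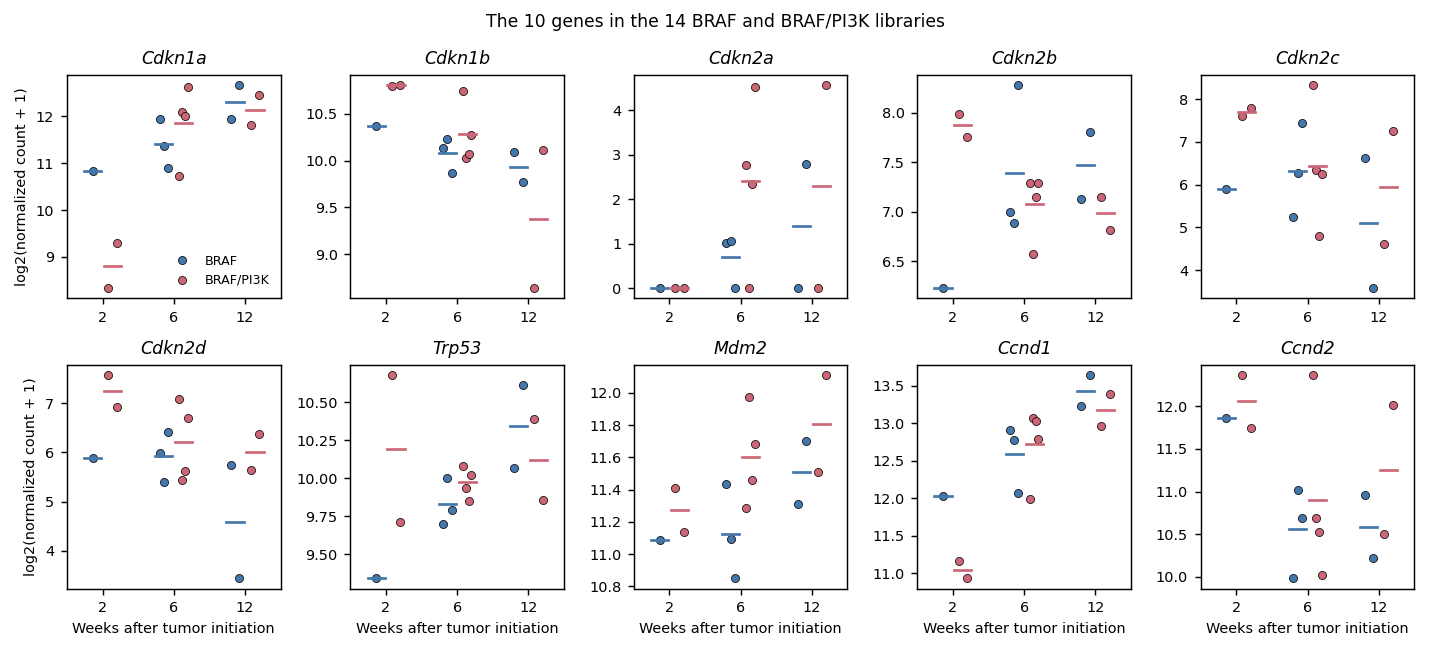
Level of each gene on the log2(normalized count + 1) scale against weeks after initiation in the 14 BRAFV600E (blue) and BRAFV600E/PI3KαH1047R (red) libraries. Points are libraries and bars are means, and each panel has its own axis. *Cdkn1a* and *Ccnd1* are lowest in BRAFV600E/PI3KαH1047R tumors at 2 weeks, and *Cdkn2a* is at 0 in 7 libraries.

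The INK4 genes were scarce. *Cdkn2a*, the senescence marker that p16Ink4a and p19Arf share, was listed at 0 in 7 of 14 libraries of the first table. In BRAFV600E tumors it was 0 at 2 weeks, 1.02, 1.08 and 0 at 6 weeks, and 0 and 5.86 at 12 weeks. In BRAFV600E/PI3KαH1047R tumors it was 0 in both libraries at 2 weeks, 5.82, 0, 4.05 and 21.9 at 6 weeks, and 0 and 22.7 at 12 weeks. The highest values were thus in single libraries of groups that also held a 0. The mean was under 10 in both tables, so *Cdkn2a* was not tested, and the row cannot say which of its products was present.

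*Cdkn2b* encodes p15Ink4b, an inhibitor known as a target of TGF-β. It was 74.0 in the BRAFV600E library at 2 weeks and 127, 118 and 311 at 6 weeks, against 253 and 216 in the BRAFV600E/PI3KαH1047R libraries at 2 weeks and 155, 94.1, 141 and 156 at 6 weeks. At 2 weeks it was thus higher, and *Cdkn1a* lower, with PI3KαH1047R. The fitted differences between genotypes at 2 weeks were 1.64 ± 0.64 for *Cdkn2b* (unadjusted p = 0.0237, adjusted p = 0.292, limma) and -2.03 ± 0.70 for *Cdkn1a* (unadjusted p = 0.0131, adjusted p = 0.235). With the endothelial score as a covariate the latter was -0.53, and it ran from -2.51 to -1.54 on leaving out 1 library, while with sex as a factor the former was 1.02. These 2 of 9 genes had an unadjusted p under 0.05, where 13.5% of all genes did, and 0 passed the adjusted threshold, where 0.0171% did. The comparison has 1 BRAFV600E library, a female, against 2 males, and no exact test can go below 0.333. Of the 10 genes 6 were higher without overlap and 2 lower, against 36.6% and 35.1% of all genes. AT2 markers were 824732 in the former against 79591 and 171533 in the latter, and endothelial markers 7341 against 58322 and 59623.

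*Cdkn2c* and *Cdkn2d*, which encode p18Ink4c and p19Ink4d, moved together. *Cdkn2c* ranged from 10.9 to 173 in BRAFV600E libraries with a median of 67.3, and from 23.4 to 322 in BRAFV600E/PI3KαH1047R libraries with a median of 116. *Cdkn2d* ranged from 9.88 to 84.0 with a median of 55.4, and from 42.5 to 189.6 with a median of 92.3. The genotypes overlapped for both genes. Over the 14 libraries Pearson's r of the pair was 0.823 (permutation p = 0.00027, adjusted p = 0.01215) and Spearman's rho 0.732 (permutation p = 0.00414, adjusted p = 0.0621), with r at 0.669 without the 2 farthest libraries. Within BRAFV600E, within BRAFV600E/PI3KαH1047R and at 6 weeks r was 0.856, 0.797 and 0.660, and in the second table r was 0.437 (exact permutation p = 0.240, adjusted p = 0.491).

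No difference of *Trp53* itself passed the threshold. It was 648 in the BRAFV600E library at 2 weeks, 829, 1023 and 884 at 6 weeks, and 1072 and 1567 at 12 weeks. In BRAFV600E/PI3KαH1047R tumors it was 1640.1 and 836 at 2 weeks, 1083, 978, 923 and 1039 at 6 weeks, and 1341 and 924 at 12 weeks. In BRAFV600E tumors the 2 libraries at 12 weeks were above all 3 at 6 weeks, as they were for *Ccnd1*. These were 2 of the 10 genes, while 9.77% of all genes tested were higher without overlap, and the fitted differences were 0.51 ± 0.33 for *Trp53* and 0.85 ± 0.35 for *Ccnd1* (unadjusted p = 0.141 and 0.0328, adjusted p = 1 for both, limma).

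*Mdm2*, the p53 target and antagonist, was 2174 in the BRAFV600E library at 2 weeks, 2771, 2182 and 1845 at 6 weeks, and 2542 and 3335 at 12 weeks. In BRAFV600E/PI3KαH1047R tumors it was 2722 and 2253 at 2 weeks, 2494, 4026, 2817 and 3293 at 6 weeks, and 2909 and 4424 at 12 weeks. At 6 weeks 3 of 4 libraries with PI3KαH1047R were above all 3 without it, and the groups overlapped. The fitted difference at 6 weeks was 0.48 ± 0.25 (adjusted p = 1, limma), and over all weeks it was 0.32 ± 0.18 (adjusted p = 0.744), with 7 of 8 libraries above the mean of the BRAFV600E libraries.

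With all weeks together, no difference between tumors with and without PI3KαH1047R passed the threshold. The question was whether activated PI3-kinase alters the arrest genes of BRAFV600E tumors. The log2 differences lay between -0.44 ± 0.62 for *Cdkn1a* and 0.95 ± 0.47 for *Cdkn2d*, with a median of 0.15 against 0.02 over all genes. By limma 0 of 9 passed, where 0.0228% of all genes passed, and 0 of 9 had an unadjusted p under 0.05, where 6.83% did. The lowest unadjusted p was 0.0610 (*Cdkn2d*, exact permutation p = 0.0689). *Cdkn1a* ranged from 1835 to 6532 with a median of 3281 in 6 BRAFV600E libraries and from 322 to 6334 with a median of 3847 in 8 BRAFV600E/PI3KαH1047R libraries. None of the 10 was without overlap, where 0.211% of genes were. The interval of *Cdkn1a*, -1.76 to 0.87, leaves room for a change of more than 2-fold downward. The sign of the *Cdkn1a* and *Ccnd1* differences turned with the endothelial score as a covariate, to 0.31 and 0.09, and with the AT2 score, to 0.65 and 0.38.

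At single times no difference of a listed gene passed either. At 6 weeks 0 of 9 passed, where 0.0228% of all genes did, and 0 of 9 had an unadjusted p under 0.05, where 4.24% did. At 12 weeks 0 of 9 passed, where 0.0114% did, and 0 had an unadjusted p under 0.05, where 3.76% did. The log2 differences ran from -0.31 to 0.48 at 6 weeks and from -0.56 to 1.42 at 12 weeks, the last for *Cdkn2d*, which was 0.27 without BRAFV600E replicate 2 and 2.57 without replicate 1. For the difference of the effect between 12 and 6 weeks 0 of 9 passed, where 0% of all genes did, and 0 had an unadjusted p under 0.05, where 2.87% did. No gene of the 10 was without overlap between the genotypes at 6 weeks, where 5.22% of genes were, or at 12 weeks, where 29.2% were. From 2 to 6 weeks in BRAFV600E/PI3KαH1047R tumors *Cdkn1a* and *Ccnd1* were higher without overlap and *Cdkn1b* and *Cdkn2b* lower, against 9.69% and 9.24% of all genes.

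**Figure D3:**
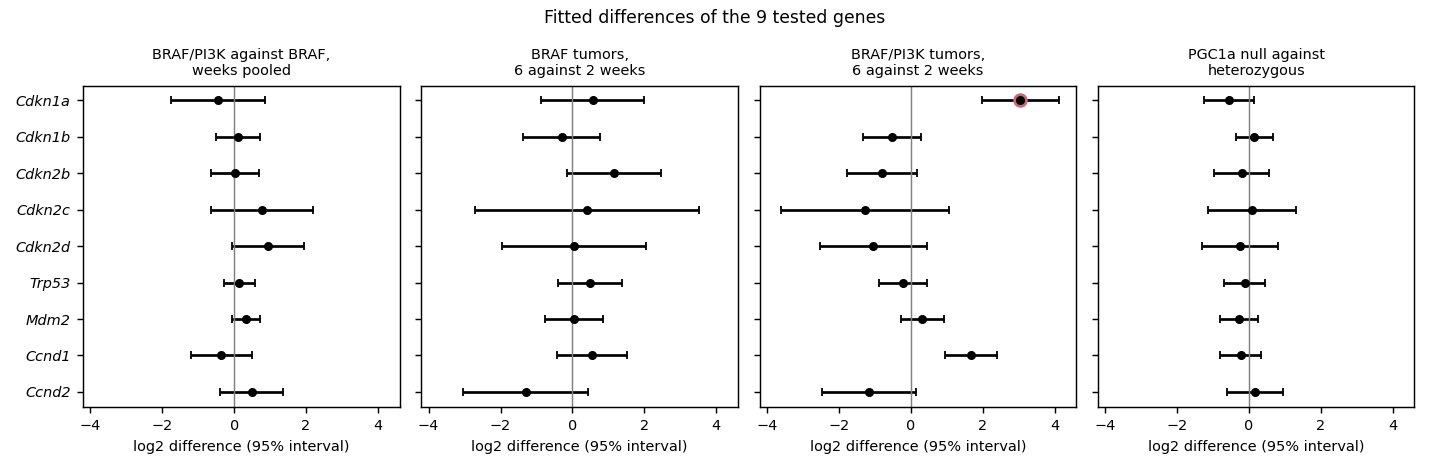
Fitted log2 differences of the 9 tested genes in 4 comparisons, with 95% intervals from limma. Points are estimates and the pink point marks the one difference past the adjusted threshold, *Cdkn1a* from 2 to 6 weeks in BRAFV600E/PI3KαH1047R tumors (3.05).

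Of 5 lists of related genes, none had a gene past the adjusted threshold in any of the 11 comparisons. Among the other CDK inhibitors and cyclin, CDK, RB and E2F genes, 2 of 15 were higher with PI3KαH1047R over all weeks at an unadjusted p under 0.05 and 0 were lower, where 6.83% of all genes were under that p in either direction. They were *Cdkn3* (1.72 ± 0.53, adjusted p = 0.500), a phosphatase that acts on CDKs, and *Cdk6* (0.74 ± 0.33, adjusted p = 0.711), a partner of cyclin D. Among 30 p53 targets, 2 were higher and 1 lower at that unadjusted p, against the same 6.83%, with a median of 0.07 against 0.02 over all genes. The lowest p were those of *Ddb2* (-0.95 ± 0.24, adjusted p = 0.286), a DNA repair factor, and *Tap1* (1.08 ± 0.39, adjusted p = 0.571), a peptide transporter of antigen presentation. Of 15 p53 regulators none was under 0.05, the lowest being *Dmtf1* (-0.48 ± 0.27, adjusted p = 0.743), an activator of *Cdkn2a*, and *Tbx2* (0.84 ± 0.68, adjusted p = 0.828), a repressor of it.

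Proliferation genes were compared with the same design. Of 30 tested over all weeks, 0 were higher and 1 lower at an unadjusted p under 0.05, where 6.83% of all genes were, with a median of -0.20. The lowest p were those of *Cdk1* (-1.09 ± 0.47, adjusted p = 0.689), the mitotic kinase, and *Kif20a* (0.89 ± 0.46, adjusted p = 0.738), a kinesin of cytokinesis. From 2 to 6 weeks in BRAFV600E/PI3KαH1047R tumors 25 of 30 had a positive difference and 8 were higher at an unadjusted p under 0.05, where 7.72% of all genes were. None of those passed the adjusted threshold, and 6 of 30 p53 targets were higher and 1 lower by the same count. Of the senescence secretome, 16 of 20 genes could be tested, and 1 was higher over all weeks at an unadjusted p under 0.05 (6.83% of all genes), *Igfbp3* (2.13 ± 0.74, adjusted p = 0.543), a carrier of insulin-like growth factors. The next was *Gdf15* (-1.28 ± 0.65, adjusted p = 0.733), a stress cytokine.

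Libraries with more *Cdkn1a* tended to have more of the other p53 targets in both tables, though single libraries decided whether the relation passed. The p53 target score, the mean log2 value of 30 targets with the 10 genes left out, was compared with each gene, as was a score of 30 proliferation genes, in 40 relations. Over 14 libraries Pearson's r of *Cdkn1a* with the p53 score was 0.778 (permutation p = 0.00074, adjusted p = 0.0284) and Spearman's rho 0.745 (permutation p = 0.00318, adjusted p = 0.0424). The value of r was 0.653 without the 2 libraries farthest from the median score, 0.628 within BRAFV600E, 0.893 within BRAFV600E/PI3KαH1047R and 0.632 at 6 weeks. Over the 9 libraries of the second table r was 0.876 (exact permutation p = 0.00142, adjusted p = 0.0284) and rho 0.967 (exact permutation p = 0.000165, adjusted p = 0.00661), with r at 0.799 without the 2 farthest. The groups of 5 and 4 there are too small for a value of their own. On leaving out each of the 23 libraries in turn, the relation of *Cdkn1a* in the first table passed in 22 and was lost without replicate 1 of BRAFV600E/PI3KαH1047R at 2 weeks (adjusted permutation p = 0.138). That in the second table passed in 21 and was lost without PGC1αHet replicate 4 (adjusted permutation p = 0.0921) or PGC1αNull replicate 2 (0.0559). These counts include the libraries of the other table, which are not in the relation and can move only its adjustment. Each loss came on leaving out a library of the relation's own table. Cell type markers moved with *Cdkn1a* over the same libraries. The 3 libraries of the first table lowest in *Cdkn1a* and in *Ccnd1*, both BRAFV600E/PI3KαH1047R at 2 weeks and the first at 6 weeks, were also the 3 lowest in AT2 markers (171533, 79591 and 312903) and the 3 highest in endothelial markers (58322, 59623 and 82773). In the second table the library lowest in *Cdkn1a*, PGC1αNull replicate 4, was lowest in AT2 (440937) and highest in endothelial markers (2260.0). The part of these markers in the relations was not tested.

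**Figure D4:**
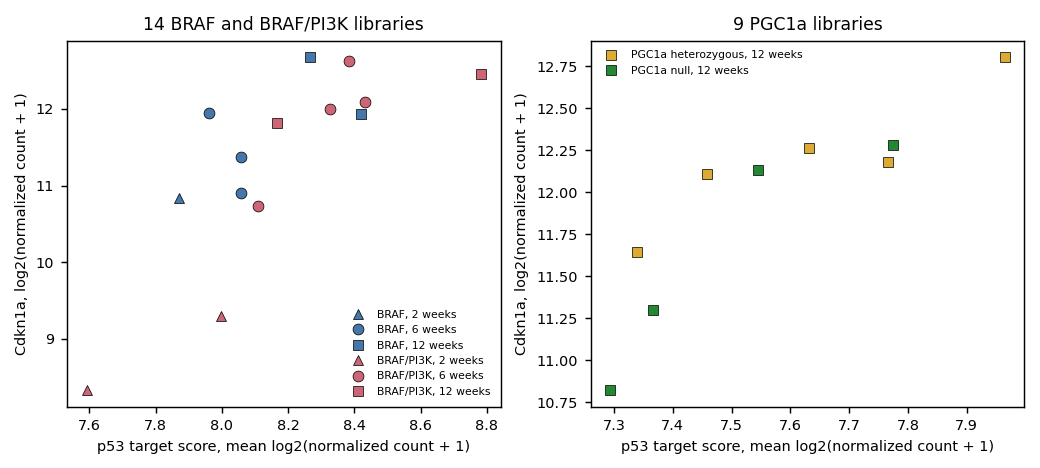
Level of *Cdkn1a*, as log2(normalized count + 1), against the p53 target score, the mean of the same scale over 30 other p53 targets, in the 14 libraries of the first table (left) and the 9 of the second (right). Each point is a library, with color for genotype and shape for week. *Cdkn1a* rises with the score in both (r = 0.778 and 0.876).

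Of the other genes, *Ccnd1* was related to the p53 target score in the first table (r = 0.734, permutation p = 0.00248, adjusted p = 0.0331; rho = 0.771, permutation p = 0.00208, adjusted p = 0.0416), with r at 0.619 without the 2 farthest libraries. On leaving out each library in turn it passed in 20 of 23, and was lost without replicate 1 of 2 weeks or replicate 2 or 3 of 6 weeks in BRAFV600E/PI3KαH1047R. The 23 include the libraries of the second table, which are not in this relation and can move only its adjustment. All of its losses were among its own libraries. Within BRAFV600E, within BRAFV600E/PI3KαH1047R and at 6 weeks its r was 0.730, 0.848 and 0.470. *Trp53* was related to the score in the second table (r = 0.840, exact permutation p = 0.00575, adjusted p = 0.0460, and rho = 0.867, exact permutation p = 0.00451, adjusted p = 0.0451), with r at 0.709 without the 2 farthest, while its r in the first table was -0.08 (permutation p = 0.778, adjusted p = 0.798). That first-table r was 0.759 within BRAFV600E, -0.639 within BRAFV600E/PI3KαH1047R, 0.380 at 6 weeks and 0.531 without the 2 farthest libraries. The relation of *Trp53* in the second table passed in only 4 of the 23 fits that left out 1 library. Of its own libraries it passed only without PGC1αHet replicate 5 (adjusted permutation p = 0.0320). Leaving out a library of the first table moved only the adjustment. *Mdm2* just missed the threshold in the first table (r = 0.668, permutation p = 0.00887, adjusted p = 0.0591; rho = 0.684, permutation p = 0.00912, adjusted p = 0.0730). *Ccnd2* was lower as the proliferation score rose in the first table (r = -0.70, permutation p = 0.00559, adjusted p = 0.0460), but rho did not pass (-0.63, permutation p = 0.0191, adjusted p = 0.127). Its r was -0.84 and -0.76 within the genotypes, -0.86 at 6 weeks and -0.80 without the 2 farthest libraries, and it too passed in 4 of 23. The passes were without BRAFV600E replicate 1 of 12 weeks, either 12 week BRAFV600E/PI3KαH1047R library, or PGC1αHet replicate 5. The last, like all libraries of the second table, is not in this relation and moved only the adjustment. *Cdkn1a* and the proliferation score had an r of 0.530 (permutation p = 0.0502, adjusted p = 0.193) and a rho of 0.538 (permutation p = 0.0499, adjusted p = 0.242), with r at 0.383 and 0.839 within the genotypes, 0.491 at 6 weeks and 0.717 without the 2 farthest libraries. In the second table this r was 0.0181 (exact permutation p = 0.964, adjusted p = 0.964) and rho 0.383 (exact permutation p = 0.3125, adjusted p = 0.446). There *Ccnd1* and the p53 score had an r of 0.623 (exact permutation p = 0.0615, adjusted p = 0.193) and a rho of 0.700 (exact permutation p = 0.0433, adjusted p = 0.242), with r at 0.344 without the 2 farthest libraries.

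The genes whose levels ran most like those of the tested genes over both tables were found among 16054 others by the smaller of their Pearson's r over 14 and over 9 libraries. For *Cdkn1a* these were *Sfxn1* (0.93 and 0.92) and *Arfgef2* (0.93 and 0.92), and for *Ccnd1* they were *Npc2* (0.94 and 0.95) and *Elovl1* (0.96 and 0.91). These were the highest of all, and the likenesses of the other genes were weaker. *Ccnd2* was most like *Bhlhe41* (0.86 and 0.80), *Cdkn2c* most like *Myl12a* (0.86 and 0.84) and *Epas1* (0.83 and 0.84), and *Cdkn2d* most like *Dpysl2* (0.82 and 0.82). For *Trp53* the first was *Ppp2r2a* (0.81 and 0.84), for *Cdkn1b* *Lifr* (0.78 and 0.84) and for *Cdkn2b* *U2af1* (0.72 and 0.79). These values describe the libraries and carry no test.

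Loss of PGC1α, a coactivator of mitochondrial genes, was compared in BRAFV600E tumors at 12 weeks. *Cdkn1a* was 3202, 4629, 4921, 7142 and 4412 in the 5 BRAFV600E/PGC1αHet libraries and 2515, 4973, 4480 and 1810.2 in the 4 BRAFV600E/PGC1αNull libraries. The 2 lowest values were both PGC1αNull, but the other 2 lay inside the range of the PGC1αHet libraries. The fitted log2 difference was -0.57 ± 0.32, with a 95% interval of -1.26 to 0.13 (adjusted p = 0.998, limma; exact permutation p = 0.175). *Ccnd1* was 7061, 6118, 8379, 8606 and 6999 against 6128, 8520.2, 7954 and 3780.5, a difference of -0.23 ± 0.26, and the groups overlapped.

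No gene of the list passed the threshold on loss of PGC1α. By limma 0 of 9 did so, where 0% of 17424 genes did, and 0 of 9 had an unadjusted p under 0.05, where 3.83% did. None of the 10 was without overlap, where 1.4% of genes were. *Mdm2* was 1589, 1431, 1746, 2525 and 1316 in PGC1αHet and 1100.0, 1505, 1866 and 1179.7 in PGC1αNull, a difference of -0.28 ± 0.24. *Trp53* was 555, 706, 773, 875 and 438 against 562, 741, 726 and 418, a difference of -0.12 ± 0.26. Neither gene separated the genotypes. The log2 differences of *Cdkn1b*, *Cdkn2b*, *Cdkn2c*, *Cdkn2d* and *Ccnd2* lay between -0.24 (*Cdkn2d*) and 0.17 (*Ccnd2*). *Cdkn2a* was detected in all 9 libraries, at 10.3, 11.1, 1.78, 9.83 and 3.97 in PGC1αHet and 8.28, 4.12, 2.78 and 20.9 in PGC1αNull, with no separation. Of the 10 endothelial markers 9 were higher at an unadjusted p under 0.05, as were 3 of 4 club, 4 of 5 fibroblast and 4 of 7 macrophage markers. Endothelial markers differed without overlap, at 621 to 954 in PGC1αHet and 1641 to 2260 in PGC1αNull libraries, and with that score as a covariate the signs turned for *Cdkn1a* (0.35), *Ccnd1* (0.26), *Trp53* (1.04) and *Mdm2* (0.32). Each of the 9 differences turned sign under at least 1 of 16 alternatives. Club markers did not overlap either, at 1160.0 to 3010 in PGC1αHet against 3888 to 17978 in PGC1αNull libraries, and their part was not tested. Lymphocyte markers, of which 7 of 8 were positive and 3 higher at that p, overlapped in their sums (109 to 387 against 298 to 731) but not in their mean log2 levels (2.72 to 4.29 against 4.90 to 6.14), and their part was not tested.

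No gene of the related lists passed on loss of PGC1α, and the counts at an unadjusted p under 0.05 stand against 3.83% of all genes in either direction. Of 30 p53 targets 22 had a negative difference, with a median of -0.18 against 0.01 over all genes, and 0 had an unadjusted p under 0.05, the lowest being *Zmat3* (-0.48 ± 0.23, adjusted p = 0.998), an RNA-binding protein, and *Phlda3* (-0.70 ± 0.36, adjusted p = 0.998), an inhibitor of AKT. Of the other cell cycle genes 0 of 15 were under 0.05, the lowest being *Cdkn1c* (0.84 ± 0.40, adjusted p = 0.998), the third CIP/KIP inhibitor, and *Rbl2* (-0.29 ± 0.20, adjusted p = 0.998), a relative of the retinoblastoma protein. At that unadjusted p, of 14 p53 regulators tested 1 was higher, *Tbx3* (1.98 ± 0.71, adjusted p = 0.998), and 1 lower, *Crebbp* (-0.62 ± 0.22, adjusted p = 0.998), an acetyltransferase. By the same count 2 of 30 proliferation genes were lower, *Bub1b* (-1.21 ± 0.35, adjusted p = 0.728) and *Aurka* (-1.34 ± 0.58, adjusted p = 0.998), both of mitosis, and 0 higher. Of 18 secretome genes 1 was higher at that p, *Igfbp5* (2.26 ± 0.85, adjusted p = 0.998), with *Il1a* next (1.58 ± 0.86, adjusted p = 0.998). Adjusted p-values are from limma, and 0 of these genes passed.

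**Figure D5:**
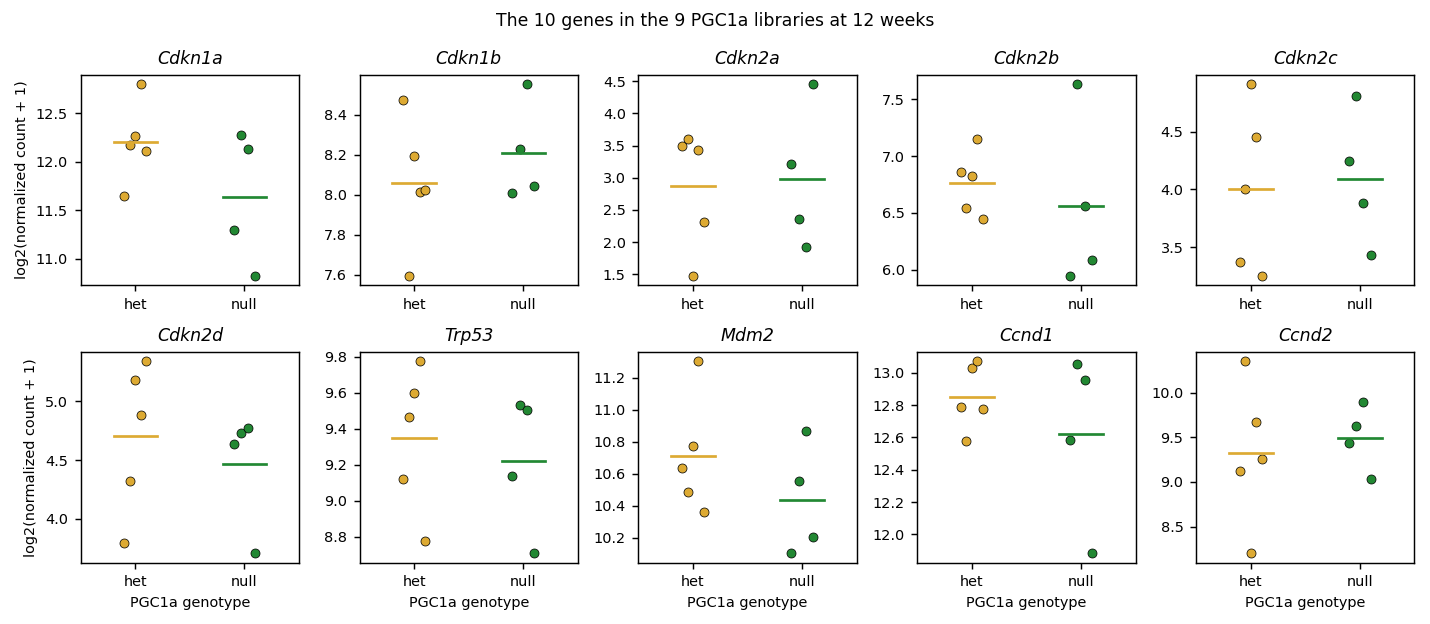
Level of each gene on the log2(normalized count + 1) scale in 5 BRAFV600E/PGC1αHet (het) and 4 BRAFV600E/PGC1αNull (null) libraries at 12 weeks. Points are libraries and bars are means, each panel has its own axis, and the genotypes overlap in all 10 panels.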

How the data were processed

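Tumor RNA was sequenced as single-end reads after an Ovation Ultralow V2 preparation of sorted cells, with RNA of low integrity left out by the study. The deposited signal values are normalized counts: per the labels and the methods, the authors estimated reads per gene with Salmon and normalized them with DESeq2, on build GRCm38, separately for each table. Versions are not given in the sources used here. The deposited comparison tables hold the authors' base means, fold changes and p-values and were not used. The values are not whole reads (at most 41.4% of values under 20 were within 0.01 of a whole multiple of the commonest step), so no count model was run. The 23 libraries were grouped by their labels, which number the tumors of a group. The labels also give the sex of each animal, which differs within some groups, and p-values measure the spread between these libraries.

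Genes whose mean reached 10 normalized counts were tested on log2(normalized count + 1) with limma 3.58.1 in R 4.3.3 (trend, moderated variance, two-sided), with Benjamini-Hochberg adjustment over all genes at 0.05. Fold changes are on that scale, which understates changes of low genes. The fit had 1 term per combination of genotype and week, and terms for genotype alone where weeks were pooled and in the PGC1α table. Single genes were also compared by two-sided exact permutation, and relations by 100000 permutations of 14 libraries or all permutations of 9. Tested on simulated data, of 200 genes shifted by 2 on the log2 scale the pooled PI3KαH1047R comparison recovered 137 (9 others were called) and the PGC1α comparison 117 (5 others), and 0 were called with no shift. Tested alternatives were a pseudocount of 4, all genes with any count, quantile normalization, sex, week or the endothelial score as a term, a replicate block, no intensity trend and leaving out each library. The AT2 and macrophage scores, the fits without the 12 week BRAFV600E/PI3KαH1047R libraries and the difference between genotypes from 2 to 6 weeks were added after seeing the data. Named genes were all 10 and, of each related list, those passing the threshold or else the 2 lowest p in the pooled and in the PGC1α comparison, and *Ppargc1a*. Some likeness results are not reported here. The members and lists were chosen with earlier results of these data known. Sequence came from RefSeq (GRCm38.p6), transcripts and positions from GENCODE vM21. Figures were drawn with matplotlib 3.10.9.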

Additional observations from a re-analysis of the deposited data

Results flagged for a closer look

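In 3 of 50 groups of 4 to 8 libraries a gene had 1 library far from the others by Dixon's ratio, and chance alone flags about 1 group in 20. *Ccnd2* was 5284 in the first 6 week BRAFV600E/PI3KαH1047R library, against 1037 to 1649.8 in the other 3. That library also had the most endothelial markers of its table (82773) and the fewest AT2 markers of its group (312903). The part of these markers in its *Ccnd2* value was not tested. *Cdkn2d* was 12.1 in BRAFV600E/PGC1αNull replicate 4, against 23.9 to 26.3 in the other 3. *Cdkn2a* was 5.86 in the second 12 week BRAFV600E library, against 0 to 1.08 in the other 5 BRAFV600E libraries of any week. No difference of the effect of PI3KαH1047R between weeks passed the adjusted threshold for any of the 9 genes tested.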

How the results depend on the processing

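In 10 of the 11 comparisons 0 of the 9 tested genes passed under every alternative that was run. From 2 to 6 weeks in BRAFV600E/PI3KαH1047R tumors, where *Cdkn1a* passed, it also passed in 9 of 23 alternatives, with an adjusted p from 0.00153 to 0.509 over all 23. The number of genes called there was 0 with all genes with any count, quantile normalization, sex as a factor, the replicate block, the AT2 score as a covariate, and without both 12 week BRAFV600E/PI3KαH1047R libraries. Leaving out 1 library gave 0 to 2, and 0 for the second 6 week and first 12 week BRAFV600E libraries, the first 2 week, replicates 2, 3 and 4 of 6 weeks and both 12 week BRAFV600E/PI3KαH1047R libraries. Without the first 6 week BRAFV600E/PI3KαH1047R library it was 2 (*Cdkn1a* and *Ccnd1*), with 698 genes called in all, against 28 with every library. Leaving out a library outside the 2 compared groups cannot change the log2 difference, because each group has its own term. Such omissions act only on the shared variance and the adjustment. The cause of the other changes was not tested. The 5 relations past the threshold became 2 to 7 on leaving out 1 library, and 2 without replicate 1 of 2 weeks or replicate 2 or 3 of 6 weeks in BRAFV600E/PI3KαH1047R, replicate 4 of BRAFV600E/PGC1αHet or replicate 2 of BRAFV600E/PGC1αNull.

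Of the log2 differences given one by one in the text, these turned sign. With the endothelial score, *Cdkn1a* and *Ccnd1* were 0.31 and 0.0938 over all weeks, 0.35 and 0.26 on loss of PGC1α, where *Trp53* and *Mdm2* were 1.04 and 0.32, and *Cdkn1a* was 0.0483 between genotypes at 12 weeks and -0.0133 from 6 to 12 weeks in BRAFV600E/PI3KαH1047R tumors. On loss of PGC1α this score did not overlap between the genotypes, so the signs there decide nothing. With the AT2 score, *Cdkn1a* and *Ccnd1* were 0.65 and 0.38 over all weeks, and *Ccnd2* was 0.25 from 2 to 6 weeks in BRAFV600E/PI3KαH1047R tumors. On leaving out 1 library, *Ccnd1* between genotypes at 6 weeks ran from -0.124 to 0.375 (below 0 without BRAFV600E replicate 3), and *Cdkn1a* between genotypes at 12 weeks from -0.541 to 0.197 (above 0 without replicate 2 of BRAFV600E or replicate 1 of BRAFV600E/PI3KαH1047R). *Cdkn1a* from 6 to 12 weeks in BRAFV600E/PI3KαH1047R tumors ran from -0.108 to 0.587 (below 0 without replicate 1 of 6 weeks or 2 of 12 weeks), and *Ccnd1* on loss of PGC1α from -0.374 to 0.0168 (above 0 without PGC1αNull replicate 4). Without that library *Trp53* (-0.267 to 0.0455) and *Cdkn2d* (-0.467 to 0.00891) were above 0 too, and *Ccnd2* (-0.105 to 0.431) was below 0 without PGC1αHet replicate 3. Between genotypes, *Cdkn2b* at 6 weeks ran from -0.564 to 0.133 (above 0 without BRAFV600E replicate 3) and *Cdkn1b* at 12 weeks from -1.29 to 0.180 (above 0 without BRAFV600E/PI3KαH1047R replicate 1). Over all 99 values of a gene in a comparison, 113 of 1962 alternatives changed the sign, and every one of these 99 but *Cdkn1a* and *Ccnd1* from 2 to 6 weeks stayed short of the threshold throughout.

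Same-numbered libraries did not deviate together (correlations of -0.28 to -0.01 at 6 weeks, -0.15 at 12 weeks and -0.47 to 0.21 in the PGC1α table). These few values gave no sign that the numbers pair the samples, but they cannot exclude it. With 2 libraries per group at 12 weeks the correlation has a single size and can differ only in sign. The replicate block took the number of genes called from 2 to 6 weeks in BRAFV600E/PI3KαH1047R tumors to 0 and changed no other call of the 10 genes. At 12 weeks the block called 2 genes in all with the numbers as labelled and 2 with them crossed. Depth in reads is unknown, and with 1 or 2 libraries in 4 of the 8 groups only large differences could pass.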
